A study of Mus musculus with 6 samples.

Results

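In mouse macrophages, 23959 genomic sites carried a PU.1 peak both after lipopolysaccharide (LPS) and without it, together with a peak of histone H3 mono-methylated at lysine 4 (H3K4me1), but no p300 peak in either condition. They were found by merging the peaks of both PU.1 lists on chromosomes 1 to 19 and X into 87958 sites. A site was kept if it overlapped, by at least 1 bp, a peak of each PU.1 list and an H3K4me1 peak of untreated cells, and no peak of either p300 list. The sites that met this rule, called marked p300-negative sites here, were 27.2% of all merged PU.1 sites (95% exact binomial interval 26.9 to 27.5%). Of the 58665 PU.1 sites present in both conditions, 31305 had an H3K4me1 peak, and 76.5% of those (76.1 to 77.0%) were marked p300-negative sites. The other 7346 had a p300 peak, 3154 of them in both conditions, 1598 after LPS alone and 2594 in untreated cells alone. A further 25441 stable PU.1 sites had neither an H3K4me1 nor a p300 peak. The sites are given by position in build mm9, without gene names or sequence, because neither a genome nor an annotation of that build was used here.

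Chromatin immunoprecipitation with sequencing was done in primary macrophages grown for 7 days from bone marrow of female Fvb mice in L929-conditioned medium. LPS-treated cells had received 10 ng/ml for 2 h, and untreated cells had received none. p300 was sequenced in 2 biological replicates per condition, PU.1 in 1 library per condition, and H3K4me1 and input DNA in 1 library each from untreated cells. The number of mice was not given in the sources used here, and cell identity was taken from the labels. The 8 libraries held 5744811 to 7828655 aligned reads of 36 bp, of which 5503587 to 6428281 at distinct positions were counted. All intervals below cover counting error within a library only, and values set over sites describe these libraries.

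PU.1 is an ETS-family transcription factor required for the macrophage lineage, and it can bind and open closed chromatin. H3K4me1 is laid down by methyltransferases of the MLL family and marks enhancers, the distal control regions of genes, whether or not they are active. p300 is a histone acetyltransferase brought to enhancers by other transcription factors, and its presence is widely used as a sign of activity. LPS, a glycolipid of the outer membrane of Gram-negative bacteria, triggers an inflammatory gene programme in macrophages. Enhancers with H3K4me1 but without p300 or histone acetylation are often called primed or poised, a term that rests on acetylation and gene activity, which were not measured in these libraries.

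The marked p300-negative sites were narrower and held fewer PU.1 reads than marked sites with p300 in both conditions. Their median width was 539 bp (quartiles 433.5 and 663 bp), against 759 bp at the 3154 marked sites with p300 in both conditions and 405 bp at the 25441 sites without H3K4me1 or p300. Their median PU.1 count was 38 reads after LPS and 41 in untreated cells. At the sites with p300 it was 101.5 reads after LPS and 99 untreated, and at the sites without either mark 19 after LPS and 18 untreated. The marked p300-negative sites thus lay between the other classes in both libraries, and they held 20.4% of all distinct PU.1 reads of the LPS library and 22.4% of those of the untreated library. These differences are descriptions, since 1 library was made per condition and the number of reads bears on whether a peak is called.

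The share of marked PU.1 sites that lacked p300 fell steadily as PU.1 reads increased. When the 31305 stable PU.1 sites with H3K4me1 were ranked by PU.1 reads in both libraries together and cut into 10 equal parts, 93.6% (92.7 to 94.4%) of the lowest part, with 13 to 33 reads, had no p300 peak. In the highest part, with 273 to 985 reads, 41.8% (40.1 to 43.6%) had none. Over the same range the share with a p300 peak after LPS went up to 40.3%, against 3.83% in the lowest part, and the share with a p300 peak in untreated cells to 51.4%, against 4.34%. PU.1 signal and p300 peak calls therefore moved together across sites, yet 1309 sites in the highest part had no p300 peak in either list. Reads and overlaps were both taken over the whole site, so its width enters both. Marked p300-negative sites had a median width of 417.5 bp in their lowest quartile of PU.1 reads and 681 bp in the highest. The part of width was not tested.

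**Figure D1:**
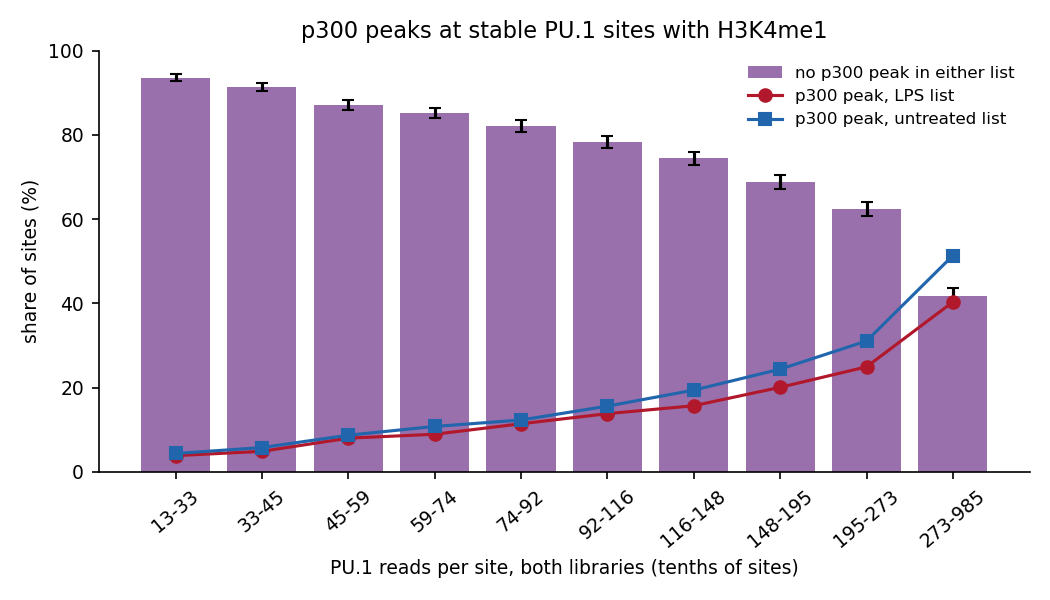
Share of stable PU.1 sites with an H3K4me1 peak (y axis, %) that had no p300 peak, a p300 peak after LPS or a p300 peak in untreated cells, in 10 equal parts by PU.1 reads from lowest to highest (x axis). Bars with 95% exact intervals go down to 41.8% in the highest part, against 93.6% in the lowest, while both p300 lines go up.

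The sites with the most PU.1 reads show how strongly PU.1 can be present without a p300 peak. The first of the 5, chr15:67004692-67006672 (1981 bp wide), had 419 PU.1 reads after LPS and 487 untreated. Its p300 reads were 19 and 26 in LPS replicates 1 and 2 and 18 and 39 in untreated replicates 1 and 2, with 25 input reads. The p300 values of both conditions overlapped there, and 3 of the 4 libraries had no more than 26 reads, close to input (single-site reads are given unscaled). The site chr7:75883551-75884512 had 365 PU.1 reads after LPS and 346 untreated, with p300 at 17 and 10 reads after LPS, 11 and 12 reads untreated, and 9 in input. The site chr7:3442978-3444032 had 373 PU.1 reads after LPS and 341 untreated, with p300 at 7 and 24 reads after LPS, 4 and 20 untreated, and 11 in input. Here replicate 2 was above input and replicate 1 below it in both conditions. The other 2, chr2:73322692-73325433 (2742 bp wide) and chr12:82819996-82821342, had 323 and 316 PU.1 reads after LPS against 377 and 351 untreated. p300 at the chr2 site had 27 and 33 reads after LPS and 24 and 47 untreated, with 27 in input. At the chr12 site it had 11 and 25 after LPS and 10 and 40 untreated, with 14 in input, so replicate 2 was above input in both conditions. The nearest p300 peak to any of the 5 lay 8008 to 49518 bp away.

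PU.1 binding at the marked p300-negative sites was close to equal in the LPS and untreated libraries. After scaling by reads in sites of both lists, the median log2 ratio of LPS over untreated was -0.07 (quartiles -0.35 and 0.20). It was 0.07 at marked sites with p300 in both conditions and 0.02 at sites without either mark. The reads used for scaling include those of these same sites, which draws the ratio towards equality. With scaling by total reads the median at the marked p300-negative sites was -0.15. Among the 19508 marked p300-negative sites with at least 40 PU.1 reads, 699 (3.58%) differed by more than 2-fold in either direction, against 5.48% of the 42939 PU.1 sites with that many reads. The 95% exact interval of the ratio lay above 1.5 at 98 sites, where 1.52% of all such PU.1 sites did so, and below its inverse at 74 sites, where 0.459% did so. With scaling by total reads these numbers were 74 higher and 124 lower, which turns their balance, and with all reads kept 209 and 199. An interval above 1 was found at 1079 sites (5.53%, against 8.48% of all such PU.1 sites), and one below 1 at 1839 sites (9.43%, against 8.05%). Since the rule asks for a PU.1 peak in both conditions, these shares describe the sites and nothing is read from their distance to the background. The other 4451 marked p300-negative sites had under 40 reads, too few for such a count.

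At the sites with the clearest increase of PU.1 after LPS, the peak that the rule requires in untreated cells had few reads. The 5 sites with the highest lower bound of the ratio were chosen for it and are given as a description. The first, chr4:35010155-35010636, had 84 PU.1 reads after LPS and 14 untreated, a scaled ratio of 6.08 (3.43 to 11.6). Its p300 reads were 3 and 5 after LPS and 3 and 3 untreated, against 2 in input, so p300 was near input in all 4 libraries. The site chr13:35171397-35172014 had 54 PU.1 reads after LPS and 8 untreated, a ratio of 6.84 (3.24 to 16.7). p300 there had 6 and 11 reads after LPS and 2 and 0 untreated, with 4 in input, so that both LPS libraries exceeded both untreated ones. The site chr10:14105507-14106089, with 64 PU.1 reads after LPS and 11 untreated, likewise had 4 and 8 p300 reads after LPS and 3 and 2 untreated. At chr17:17591600-17592221 (62 PU.1 reads after LPS and 12 untreated) and chr16:75917631-75918423 (50 and 9), the p300 reads of the conditions overlapped. None of these p300 differences passed the test across all PU.1 sites by limma (adjusted p 0.689 to 0.945).

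The 5 sites with the lowest upper bound had 13 to 42 PU.1 reads after LPS and 58 to 145 untreated. The site chr1:177589967-177590612 had 15 PU.1 reads after LPS and 67 untreated, a ratio of 0.227 (0.120 to 0.402), and 1 to 3 p300 reads in each of the 4 libraries. The site chr19:10099751-10100884 had 42 PU.1 reads after LPS and 145 untreated, a ratio of 0.294 (0.203 to 0.417). Its p300 reads were 7 and 7 after LPS and 10 and 40 untreated, with 18 in input, so the untreated value above input came from replicate 2. The site chr2:160101643-160102367 had 38 PU.1 reads after LPS and 125 untreated, with p300 at 5 and 6 reads after LPS and 3 and 25 untreated. Replicate 2 alone was high there as well. The other 2, chr5:140638322-140638874 and chr6:65114935-65115508, had 13 and 31 PU.1 reads after LPS against 58 and 107 untreated.

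The sites lacked called p300 peaks by rule, but reads of some p300 libraries were still concentrated at their centres. The median site had 3 and 4 p300 reads in LPS replicates 1 and 2, 3 and 5 in untreated replicates 1 and 2, and 4 in input. Summed over the 4 p300 libraries the median was 16 reads (quartiles 10 and 25) and the highest 152, and 49 sites had 0. For a 4-library count of 0, up to 3 reads are allowed by counting error. Counted over all marked p300-negative sites, reads within 250 bp of the centre were 1.67 and 2.16 times as dense as reads 2 to 3 kb away in LPS replicates 1 and 2. The same ratio was 1.43 and 2.51 in untreated replicates 1 and 2, and 1.66 in input, so replicate 2 lay above input in both conditions and untreated replicate 1 lay below it. On the log2 scale the ratio averaged 0.93 ± 0.26 after LPS and 0.92 ± 0.57 untreated (SD, n = 2 each), a difference of 0.00 (two-sided exact permutation p = 1.0, where 2 against 2 libraries cannot go below 0.33). The sign of so small a difference depended on which library was included, with values of -0.40 to 0.41 when 1 was left out.

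The excess in replicate 2 was also present far from p300 peaks. At the 19489 marked p300-negative sites at least 5 kb from any p300 peak, the centre-to-flank ratio was 1.74 and 2.39 in LPS replicates 1 and 2, 1.47 and 2.87 in untreated replicates 1 and 2, and 1.69 in input. Counted within 100 bp of the centre at all marked p300-negative sites, it was 1.93 and 2.68 after LPS, 1.57 and 3.21 untreated, and 1.75 in input. At sites without H3K4me1 or p300 it was 1.64 and 2.04 after LPS, 1.42 and 2.27 untreated and 1.73 in input, within 250 bp. At marked sites with p300 in both conditions it was 4.48 and 9.10 after LPS and 2.66 and 10.8 untreated, against 1.52 in input. The order of the 4 libraries was the same in all 3 classes, with replicate 2 above replicate 1. In each library the ratio at the marked p300-negative sites was nearer to that of input than to that of the p300 sites. Both classes were chosen by p300 peaks called from these same libraries, so nothing is read from this.

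**Figure D2:**
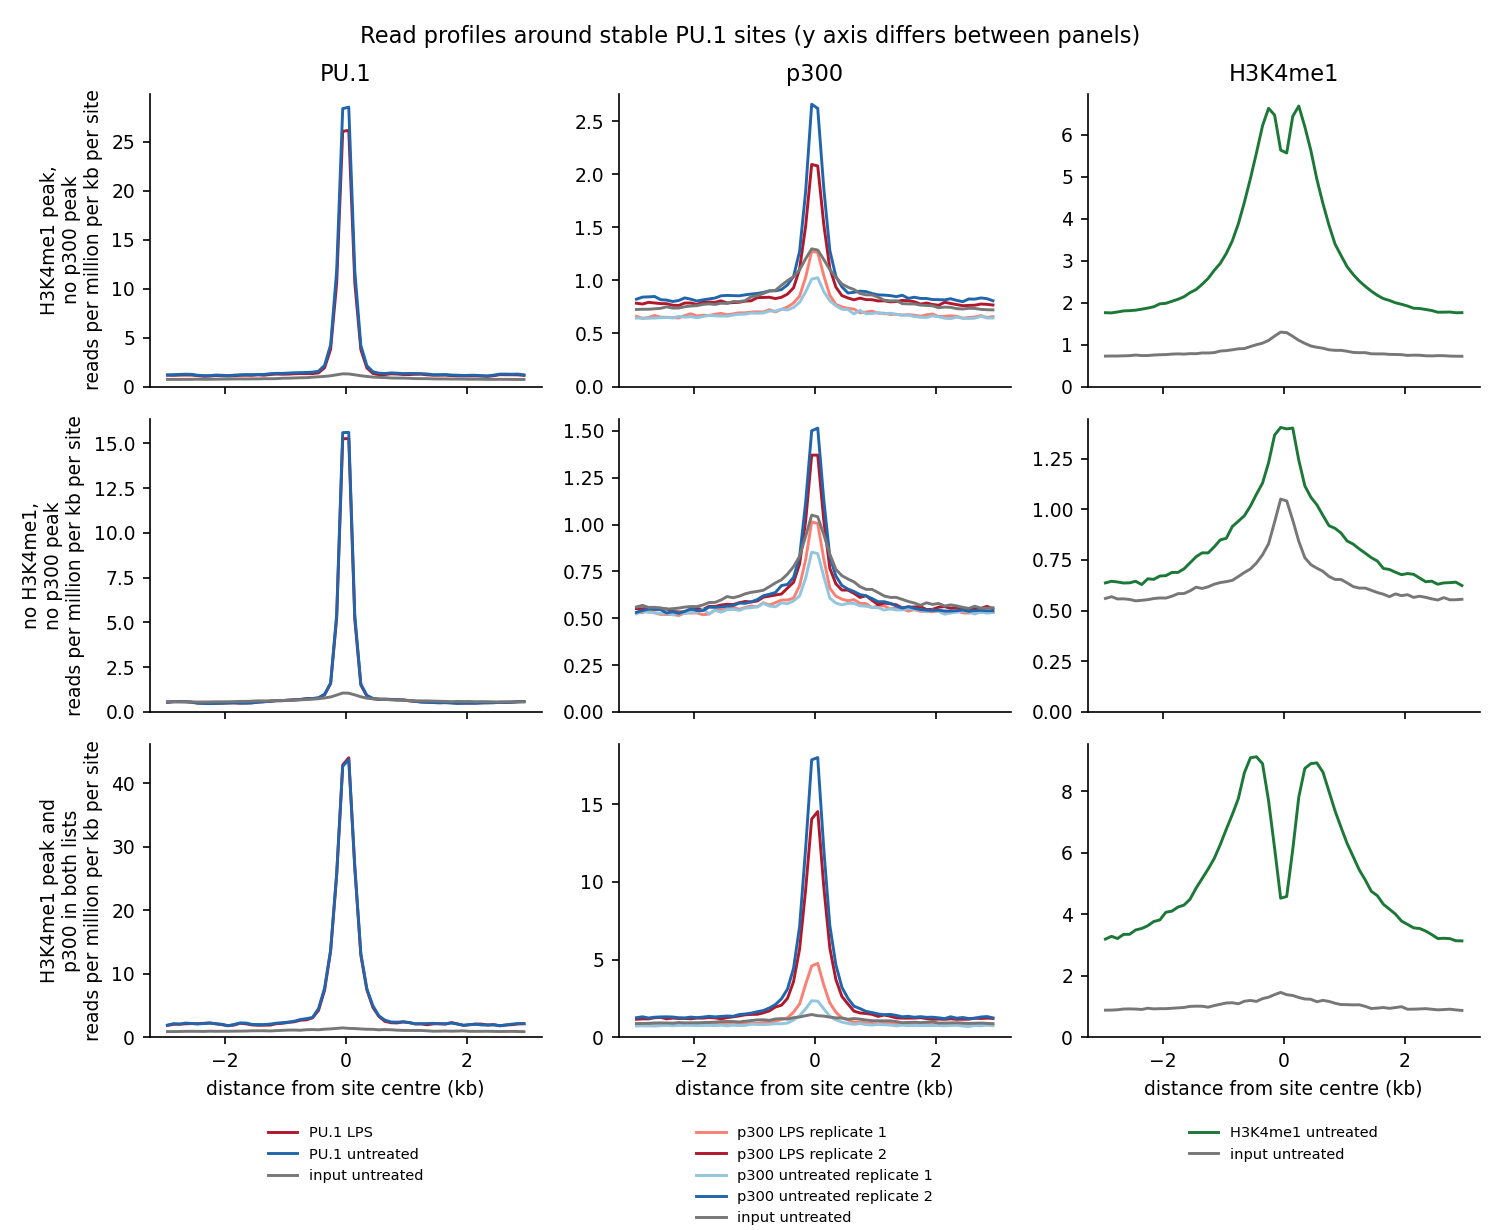
Distinct reads per kb and site, scaled by library depth (y axes, which differ between panels) against distance from the site centre in kb (x axis), for PU.1, p300 and H3K4me1 with input, at marked p300-negative sites (top), sites without H3K4me1 or p300 (middle) and marked sites with p300 in both conditions (bottom). At marked p300-negative sites p300 replicate 2 of both conditions stands above input at the centre, and H3K4me1 has a shallow minimum there.

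p300 reads at the centre went up with PU.1 reads, and so did input. In the lowest quartile of PU.1 reads (14 to 46) the centre-to-flank ratio of p300 was 1.51 and 1.88 in LPS replicates 1 and 2, 1.35 and 2.14 in untreated replicates 1 and 2, and 1.49 in input. In the highest quartile (139 to 906 reads) it was 1.90 and 2.60 after LPS, 1.56 and 3.07 untreated, and 1.89 in input. The part of input in this trend was not tested. Across the 19508 sites with at least 40 PU.1 reads, p300 reads had a Spearman correlation of 0.45 with PU.1 reads and 0.60 with input reads, all counted over the same sites, whose width enters each count. Both are descriptions over sites.

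The sites with the most p300 reads show how close the p300-negative class comes to called peaks. The site chr1:173488536-173489604 had 19 and 40 p300 reads in LPS replicates 1 and 2, 29 and 64 in untreated replicates 1 and 2, and 23 in input, with 243 PU.1 reads after LPS and 257 untreated. The site chr17:36002310-36005222, 2913 bp wide, had 29 and 44 p300 reads after LPS, 15 and 54 untreated and 25 in input. The site chr19:41456011-41457789 had 24 and 51 after LPS, 17 and 46 untreated and 21 in input. In all 3 the highest counts were in replicate 2 and the conditions overlapped. Just outside the class, the p300-positive marked sites with the lowest p300 peak score, 50.00 to 50.03 on the authors' scale with a lowest listed value of 50.0, had fewer reads. The site chr11:67292900-67293587 had 8 and 2 p300 reads after LPS and 6 and 19 untreated, with 6 in input. The sites chr19:52953164-52953939 and chr6:85036513-85037312 had 26 and 38 p300 reads over the 4 libraries. Among the 1095 marked sites with a p300 peak score under 60, the median was 37 p300 reads, and 2634 marked p300-negative sites had as many or more. A peak call depends on local background and width as well as on reads, and the boundary between the classes is a threshold and not a gap.

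Few marked p300-negative sites passed a test of p300 between LPS and untreated cells. A limma voom fit of the 4 p300 libraries over all 46838 merged PU.1 sites with at least 10 p300 reads found 43 sites (0.0918%) higher after LPS and 1 site (0.00214%) lower, at a Benjamini-Hochberg adjusted p under 0.05. Of the 23959 marked p300-negative sites 18632 entered the fit. Among these, 3 were higher and 0 lower. At an unadjusted p under 0.05, 506 were higher and 318 lower, where 2223 and 799 of all 46838 sites were. Limma's trend method called 0 higher and 3 lower among the marked p300-negative sites, and 134 higher and 5 lower over all sites. The rule used the p300 peak lists, so nothing is read from these counts against the background. The median log2 fold change was -0.06 at the marked p300-negative sites tested and 0.02 over all sites tested. The fit gave all sites a common variance, so its SE does not measure the replicates of a single site.

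The 3 called sites rested on few reads. At chr1:172826732-172827604, p300 had 10 and 20 reads in LPS replicates 1 and 2 and 4 and 1 in untreated replicates 1 and 2 (log2 fold change 3.51 ± 0.81 SE, limma adjusted p = 0.0252), with 55 PU.1 reads after LPS and 33 untreated. At chr1:9866772-9867438, p300 had 9 and 17 reads after LPS and 7 and 1 untreated (3.08 ± 0.72, limma adjusted p = 0.0260), with 78 PU.1 reads after LPS and 91 untreated. At chr2:122234158-122235149, 293 bp from a p300 peak, p300 had 10 and 13 reads after LPS and 5 and 1 untreated (3.15 ± 0.77, limma adjusted p = 0.0434), with 134 PU.1 reads after LPS and 107 untreated. Both LPS libraries exceeded both untreated libraries at each site, and each had 1 read in untreated replicate 2. Without that library the log2 fold changes were 1.08, 0.16 and 0.49, and without any other of the 4 libraries they were 3.08 to 4.03. None of the 3 passed the threshold in a fit of 3 libraries, with total reads as library size, without the filter on low counts or by limma's trend method.

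Grouped by how PU.1 differed between conditions, the marked p300-negative sites had p300 ratios ordered like those of PU.1. Sites with at least 40 PU.1 reads were divided into 5 groups by the log2 ratio of PU.1 after LPS over untreated, and p300 reads were summed and scaled by distinct reads of the library. Replicate numbers were not taken to pair the libraries, so each LPS library was set against each untreated one, in 4 combinations. Same-numbered libraries had similar shares of reads at distinct positions. These were 97.0% untreated and 96.0% after LPS in replicate 1, and 78.0% and 74.2% in replicate 2. From the 394 sites with a PU.1 log2 ratio below -1, over the 2409 sites between -1 and -0.5, the 14972 between -0.5 and 0.5 and the 1428 between 0.5 and 1, to the 305 above 1, the p300 ratio of LPS over untreated increased at each step in all 4 combinations. For LPS replicate 1 over untreated replicate 1 it was 0.992 (0.914 to 1.08) in the lowest group and 1.48 (1.35 to 1.61) in the highest. For LPS replicate 1 over untreated replicate 2 it was 0.466 (0.434 to 0.501) in the lowest and 0.799 (0.740 to 0.863) in the highest. The ratios of LPS replicate 2 were 1.27 (1.17 to 1.37) and 2.62 (2.43 to 2.84) over untreated replicate 1, and 0.595 (0.557 to 0.635) and 1.42 (1.33 to 1.52) over untreated replicate 2. The 4 combinations thus had the same order of groups, while their ratios lay on different sides of 1, and they share libraries and are not independent. Replicate 2 had more of its distinct reads in the marked p300-negative sites, 2.34% after LPS and 2.88% untreated. Replicate 1 had 1.55% and 1.31%, and these shares enter the level of each ratio. Input reads per site, from untreated cells, were 3.72 to 5.10 over the 5 groups and highest in the middle one.

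**Figure D3:**
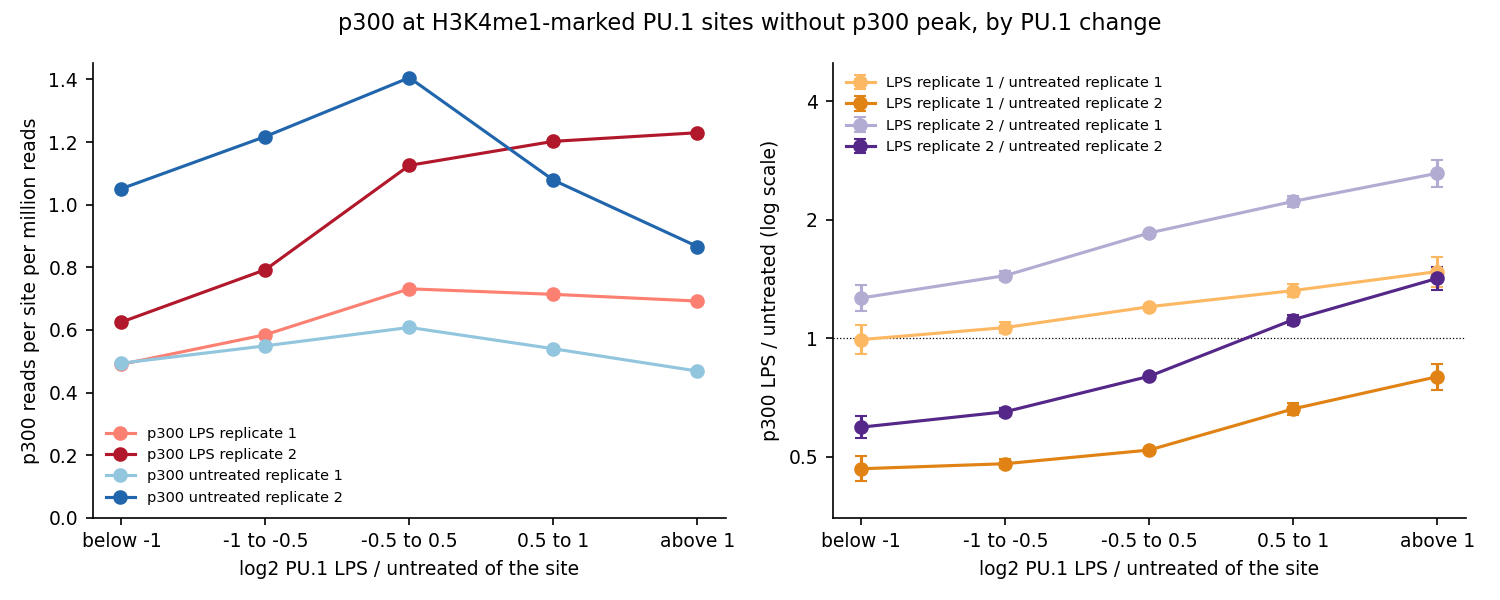
Marked p300-negative sites grouped by the log2 ratio of PU.1 after LPS over untreated (x axes), with depth-scaled p300 reads per site in each library (left, y axis) and the ratio of p300 in each LPS library over each untreated library (right, y axis, log scale, 95% exact intervals). All 4 ratios go up across the groups, reaching 0.799 to 2.62 at sites with a PU.1 log2 ratio above 1.

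Set out by library, the 1733 sites with a PU.1 log2 ratio above 0.5 were compared with the 2803 below -0.5. The log2 ratio of p300 reads per site between these groups was 0.31 and 0.65 in LPS replicates 1 and 2, and -0.04 and -0.20 in untreated replicates 1 and 2. Both LPS values lay above both untreated values, and input had -0.02. The mean was 0.48 ± 0.24 after LPS and -0.12 ± 0.11 untreated (SD, n = 2 each), a difference of 0.60 with a two-sided exact permutation p = 0.33, the smallest that 2 against 2 libraries allow. H3K4me1 of untreated cells, which the grouping did not use, had a log2 ratio of -0.23. The same difference was 1.17 at marked sites with p300 in both conditions (364 sites above and 139 below) and 0.39 at sites without either mark (1596 above and 1293 below), where input had 0.22. The differences between these classes were not tested. PU.1 and p300 were precipitated from chromatin of the same treatment, and whether they share a source of variation such as chromatin accessibility was not tested.

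H3K4me1 was strongly enriched around the marked p300-negative sites, as their rule requires, with a slight minimum at the PU.1 peak itself. The median log2 ratio of H3K4me1 over input within 1 kb was 2.13 (quartiles 1.65 and 2.61), against 2.54 at marked sites with p300 in both conditions and 0.31 at sites without either mark. The rule did not use the profile of H3K4me1 across the centre, though the overlap it asks for bears on where the signal lies. Read density within 100 bp of the centre was 0.928 (0.922 to 0.933) of that 250 to 500 bp away. It was 0.519 (0.511 to 0.528) at sites with p300 in both conditions and 1.25 at sites without either mark. Input did not dip, with 1.26, 1.15 and 1.37 in the same 3 classes. For the 18817 marked p300-negative sites whose centre lay within an H3K4me1 peak (78.5%, 78.0 to 79.1%), the value was 1.04, above 1. The minimum over all sites thus depended on those whose centre lay outside an H3K4me1 peak. This split selects on H3K4me1 at the centre, the quantity measured, which favours a higher value inside peaks. It therefore cannot tell whether the minimum is general.

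The centre-to-shoulder ratio of H3K4me1 was lower at sites with more PU.1 reads, and below 1 in the upper quartiles only. From the lowest to the highest quartile of PU.1 reads, the centre-to-shoulder ratio of H3K4me1 at marked p300-negative sites was 1.19, 1.01, 0.892 and 0.751, while that of input was 1.22, 1.23, 1.28 and 1.31. With the centre inside an H3K4me1 peak it was 1.36 in the lowest quartile and 0.842 in the highest, so the order held there. The sites also widened over the quartiles, with median widths of 417.5, 510, 577 and 681 bp. A wider site can meet the overlap rule with an H3K4me1 peak farther from its centre, and the part of width was not tested. Marked sites with p300 in both conditions, cut at the same PU.1 reads, had 0.672 (119 sites), 0.567 (316 sites), 0.518 (591 sites) and 0.508 (2128 sites). In each range the sites without p300 had the higher value, although in the highest range they had fewer PU.1 reads, with a median of 203 against 270.5. They were also narrower in each range, where the p300 sites had median widths of 474, 571.5, 674 and 856 bp. The H3K4me1 ratios come from 1 library of untreated cells, so no p was computed.

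**Figure D4:**
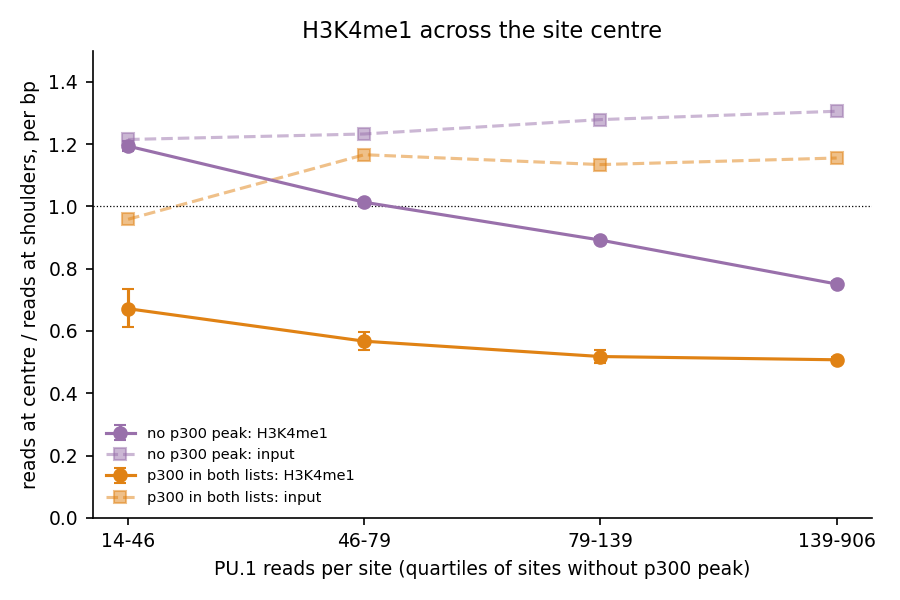
Read density within 100 bp of the site centre over that 250 to 500 bp away (y axis) by quartile of PU.1 reads (x axis, lowest to highest), for H3K4me1 and input at marked p300-negative sites and at marked sites with p300 in both conditions. H3K4me1 at marked p300-negative sites goes down to 0.751 and stays above that of the p300 sites, which is 0.508 in the highest range.

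Single sites ranged widely in H3K4me1. The highest, chr2:91793860-91794410, had 119 H3K4me1 reads within 1 kb against 2 in input (log2 ratio 5.31), with 55 PU.1 reads after LPS and 52 untreated and p300 at 5 and 5 reads after LPS and 1 and 10 untreated. The next, chr1:167118840-167119306 and chr2:17858098-17858548, had log2 ratios of 5.10 and 5.08, over 2 and 0 input reads. Their rank therefore rests on low input. At the other end, chr7:28258168-28260251 had 5 H3K4me1 reads within 1 kb against 20 in input (-1.82), and chr7:134621078-134622739 had 11 against 27 (-1.23). The site chr17:36002310-36005222, also among the 3 with the most p300 reads, had 8 against 21 (-1.30). All 3 were at least 1662 bp wide. The rule was met there by overlap with an H3K4me1 peak at any part of the site. Near the rule's limit, the 460 marked p300-negative sites that overlapped an H3K4me1 peak by at most 50 bp had a median log2 ratio of 1.51, and the 500 sites without either mark that lay within 50 bp of such a peak had 1.53.

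Few H3K4me1 peaks overlapped more than 1 marked p300-negative site. Of the sites, 20347 overlapped 1 H3K4me1 peak, 3568 overlapped 2 and 44 overlapped 3, by at least 1 bp. Counted by peak, 26795 of the 84743 H3K4me1 peaks (31.6%) overlapped at least 1 of the sites, so that a site can count under several peaks. Of these peaks 25991 overlapped 1 site, 788 overlapped 2 and 16 overlapped 3. Peaks with such a site were wider, with a median of 803 bp against 591 bp for the rest, and had a higher score as the authors' caller gave it, 150.4 against 99.9. A wider peak has more room to overlap a site by 1 bp, so the counting itself bears on this difference. Among the 16 peaks with 3 sites, those with the highest scores were chr11:117687339-117694133, chr15:27599465-27606941 and chr17:5796743-5803175, none of which overlapped a p300 peak. The tie among the 16 was broken by score after their values were seen. In all, 848 marked p300-negative sites (3.54%, 3.31 to 3.78%) overlapped an H3K4me1 peak that also overlapped a p300 peak, and the share was 1.74% with p300 peaks of a score of at least 100. Those 848 had a median of 113 PU.1 reads and a log2 H3K4me1 ratio of 2.78, against 78 reads and 2.11 at the other 23111.

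Most marked p300-negative sites lay some distance from p300. The median distance to the nearest p300 peak of either list was 18530 bp (quartiles 6900 and 44539.5 bp). Within 1 kb lay 4.60% of the sites, within 10 kb 33.1% and within 100 kb 91.7%. Sites without H3K4me1 or p300 lay farther off, with a median of 34155 bp, 1.95% within 1 kb, 18.3% within 10 kb and 81.2% within 100 kb. A site with a p300 peak at distance 0 is in neither class by rule.

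**Figure D5:**
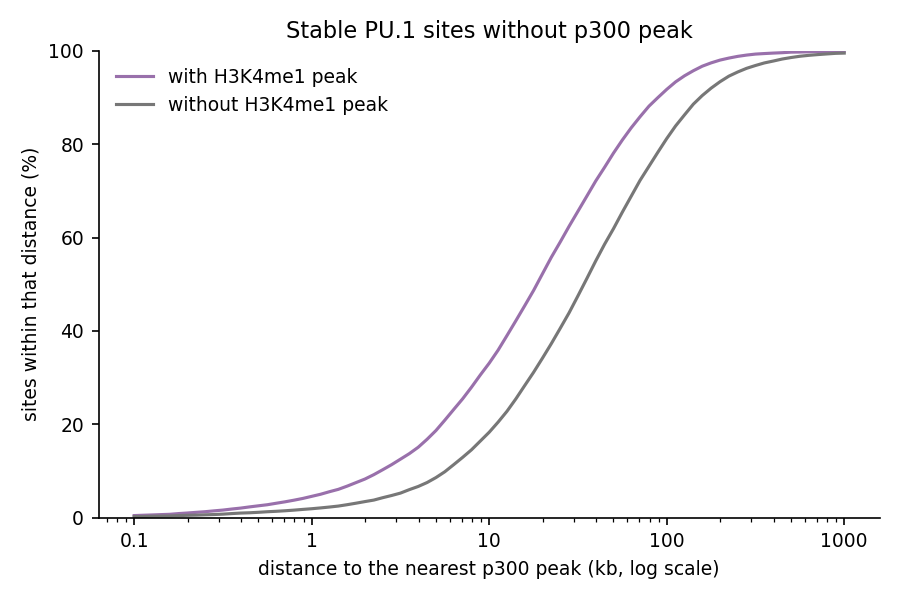
Cumulative share of sites (y axis, %) within a given distance of the nearest p300 peak (x axis, kb, log scale), for marked p300-negative sites and for stable PU.1 sites without H3K4me1 or p300. The first curve lies above the second, with 33.1% against 18.3% within 10 kb.

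Distances between marked p300-negative sites were measured in this class alone, without other PU.1 sites beside it. The median distance to the nearest other marked p300-negative site was 9868 bp (quartiles 4071.5 and 24504 bp), 13.4% had another within 2 kb and 50.3% within 10 kb. In windows of 100 kb, 8845 windows held at least 1 site, and 1423 windows with 5 or more held 8856 of the sites. The highest number in a window was 13, reached in 2 windows. In chr1:80600001-80700000 the 13 sites were among 21 PU.1 sites, 4 of which had p300, and their PU.1 reads in both libraries together ranged between 24 and 256. In chr15:64000001-64100000 they were among 17 PU.1 sites, 2 with p300, and ranged between 65 and 295. Strong and weak PU.1 sites without p300 thus lay in the same windows as p300 sites.

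Density differed between chromosomes and was low on X. Autosomes had 7.15 (chromosome 3) to 14.5 (chromosome 11) marked p300-negative sites per Mb, and X had 1.91. As a share of the stable PU.1 sites the range was 36.3% (chromosome 18) to 44.1% (chromosome 11) on autosomes and 21.8% on X, where 67.8% had neither mark. H3K4me1 peaks numbered 7.65 per Mb on X and 26.2 to 51.4 per Mb on autosomes. Input reads also were fewer on X, at 1843 per Mb against 2488 to 3403 per Mb on autosomes, and the part of coverage in the difference was not tested. The 318 marked p300-negative sites on X had a median log2 H3K4me1 ratio over input of 1.95, against 2.13 over all such sites.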

How the data were processed

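Aligned reads and peaks were deposited with positions on mm9, per the submitters' processing notes. Peaks were called with MACS, and the score of each peak is 10 times the -log10 p-value, per the deposited column description; the lowest listed score was 50.0. The controls for peak calling were, per the file headers, input for H3K4me1, "random" for PU.1 and "naked" for p300. The p300 lists come from merged replicates, per the series' design text. The untreated PU.1 peaks have LPS in their header line but were kept as untreated, after their sample label. Not given in the sources used here were the aligner, the read filters and the version of MACS.

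Reads were counted here, 1 per position and strand, with 5' ends moved 100 bp downstream, on chromosomes 1 to 19 and X. Coordinates are 1-based. PU.1 was scaled by reads in sites of both lists (LPS multiplied by 1.01), and PU.1 log2 ratios had 0.5 reads added. H3K4me1 over input was scaled by distinct reads, with 1 read added. p300 counts, scaled by median-of-ratios factors from the sites tested, were tested by limma 3.58.1 (voom) in R 4.3.3 for treatment alone, on sites with at least 10 p300 reads. Exact intervals at 95% are binomial (Clopper-Pearson) or conditional on the sum of both counts. Other steps used Python 3.11.15 with numpy 2.4.6, pandas 2.3.3 and scipy 1.17.1. The fit was tested on simulated data, with changes set only at sites with more p300 reads than most marked p300-negative sites had.

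The sites, classes and lists were chosen with earlier results of these data known. Named sites were the 5 with most PU.1 reads, the 5 highest and 5 lowest PU.1 ratios by interval bound, the 3 with most p300 reads and the 3 p300-positive sites of lowest score, the 3 highest and 3 lowest in H3K4me1, the 3 H3K4me1 peaks with most sites, and called p300 sites. Gene lists and motifs need a genome or annotation of mm9 and were not used here. PU.1, H3K4me1 and input have 1 library each, so no p was computed for them.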

Additional observations from a re-analysis of the deposited data

How the results depend on the processing

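With a score of at least 100 required in every list, 14383 sites met the rule. The median PU.1 log2 ratio was -0.078 with all reads kept and -0.15 with scaling by total reads. PU.1 intervals beyond 1.5-fold numbered 209 higher and 199 lower with all reads kept, and 74 higher and 124 lower with total scaling, against 98 and 74. Marked p300-negative sites called higher for p300 numbered 0 with total reads as library size, 4 with scaling over p300 peak sites, 0 without a filter on low counts, 0 by limma trend, 2 with all reads kept, and 0 to 0 without each library in turn. Sites called lower numbered 3 by limma trend. Over all PU.1 sites tested, limma trend called 134 higher and 5 lower, and scaling over p300 peak sites 193 higher and 14 lower. The cause was not tested for these. With fewer libraries, the 0 calls say nothing about stability.

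Whether replicate numbers pair the p300 libraries, 2 per condition, was not settled. The correlation of deviations between same-numbered libraries was 0.11 over 23959 sites. With medians of 3 to 5 reads per site and library, counting error keeps such a correlation low, so it cannot decide this. With the replicate number as a block, 3 marked p300-negative sites were called higher and 3 lower (496 and 74 over all PU.1 sites, against 43 and 1), and the 3 sites called without the block had adjusted p of 0.185, 0.462 and 0.455 (limma).

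The LPS minus untreated difference in log2 centre-to-flank p300 was -0.40 to 0.41 without each library in turn and -0.0070 at sites at least 5 kb from p300. Median log2 H3K4me1 over input was 2.25 within 500 bp, 1.79 within 2 kb, 2.18 with 0.5 reads added and 2.16 with all reads kept. Against p300 peaks with a score of at least 100, 1.74% of sites shared an H3K4me1 peak with p300. The centre-to-shoulder ratio was 0.897 within 50 bp, 0.913 with reads moved 50 bp and 1.04 at sites centred in an H3K4me1 peak. The difference in p300 by PU.1 change was 0.43 to 0.91 under all alternatives run. Alternatives for that difference and for the centre-to-shoulder ratio were chosen after seeing the data. At 3 to 5 p300 reads per site and library, single-site p300 differences are limited by depth.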

Other observations

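Of the marked p300-negative sites, 40 (0.167%) had fewer H3K4me1 than input reads within 1 kb, after scaling and with 1 read added. They were wide, with a median of 973.5 bp (254 to 2913 bp), and the centre of 5 of them lay within an H3K4me1 peak. Their median PU.1 count in both libraries together was 130 reads, and their median p300 count over 4 libraries was 40 reads (4 to 142). The centre-to-flank ratio of p300 was 2.30 and 3.60 in LPS replicates 1 and 2, 1.46 and 4.53 in untreated replicates 1 and 2, and 2.45 in input. Replicate 2 thus exceeded input in both conditions and replicate 1 did not. H3K4me1 itself was lower at their centres than in the flanks, with a ratio of 0.556. Of the 40, 4 lay within 5 kb of a p300 peak, where 18.7% of all marked p300-negative sites did. This group was chosen after its values were seen and carries no test.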
